A study of Homo sapiens with 8 samples.

Results

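SiHa, an established cervical squamous carcinoma line, carries papillomavirus DNA integrated in chromosome band 13q22, and the promoters of 6 host genes around that band, KLF5, KLF12, PIBF1, DIS3, BORA and KLHL1, were examined for trimethylated lysine 9 of histone H3 (H3K9me3). Every chromosome 13 promoter window filed under 1 of these symbols was taken, which gave 9 of the 38157 windows of the series. KLHL1 had 3 windows, DIS3 and PIBF1 had 2 each, and KLF5 and KLF12 had 1 each. BORA had 0 windows under its own name. All 9 windows span 2100 bases and all 9 passed the filter on low reads. Of 811 other chromosome 13 windows, 788 passed it, and the comparisons on this chromosome drew on these. The position of the viral DNA is not given in the files, and where it lies relative to each window was not measured.

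Cells were seeded on a porous transwell membrane, and 10 h later those that had migrated through it and those that had not were collected apart. From each fraction an H3K9me3 chromatin immunoprecipitation (ChIP) library and an input library, sonicated chromatin without antibody, were sequenced in 2 paired replicate sets, so that each of the 4 groups (migrated H3K9me3, migrated input, non-migrated H3K9me3, non-migrated input) held 2 libraries. All libraries came from the same unmodified line, grown and seeded alike, and no normal genome was included. The Illumina TruSeq kit with gel extraction was used for set 1, from which duplicate reads were removed, and a NEB kit with beads for set 2, so kit and set cannot be told apart. Set 1 was shallower: its H3K9me3 libraries held 88028 (migrated) and 164766 (non-migrated) reads in promoter windows, against 984835 and 1137376 in set 2, and its inputs held 684949 (migrated) and 388191 (non-migrated), against 1679874 and 1729061 in set 2.

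H3K9me3 is written by SUV39H1 and related methyltransferases, is bound by HP1 proteins and is a mark of silenced, compact chromatin. Active promoters rich in CpG dinucleotides generally lack it. The 6 genes have unrelated roles. KLF5 and KLF12 are Krüppel-like zinc finger transcription factors, of which KLF5 is known for promoting growth of basal epithelial cells and KLF12 as a repressor of the gene for AP-2alpha. DIS3 is the catalytic ribonuclease of the nuclear RNA exosome, PIBF1 is a protein of the centrosome and pericentriolar satellites, and BORA is the Aurora A cofactor through which PLK1 is activated before mitosis. KLHL1 is a Kelch-like, actin-binding protein known from neurons.

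The promoters in question differ in CpG content, which is why 4 of them are shown here, each with 250 bases before and 50 bases after the start, 5′ to 3′ on the gene's strand, with CpG in capitals (RefSeq, GRCh38.p14). They are the KLHL1 promoter (chr13:70108403-70108702, minus strand), the PIBF1 promoter (chr13:72781883-72782182, plus strand), which shares 268 bases with that of DIS3 on the other strand, the upstream KLF5 promoter (chr13:73054726-73055025, plus strand) and the KLF12 promoter nearest to the measured window (chr13:74134355-74134654, minus strand).
KLHL1: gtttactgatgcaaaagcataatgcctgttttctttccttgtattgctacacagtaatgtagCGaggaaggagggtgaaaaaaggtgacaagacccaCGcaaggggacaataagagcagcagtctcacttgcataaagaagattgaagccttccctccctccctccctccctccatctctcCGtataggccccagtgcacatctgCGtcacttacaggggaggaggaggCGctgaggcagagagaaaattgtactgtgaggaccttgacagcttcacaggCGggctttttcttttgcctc
PIBF1: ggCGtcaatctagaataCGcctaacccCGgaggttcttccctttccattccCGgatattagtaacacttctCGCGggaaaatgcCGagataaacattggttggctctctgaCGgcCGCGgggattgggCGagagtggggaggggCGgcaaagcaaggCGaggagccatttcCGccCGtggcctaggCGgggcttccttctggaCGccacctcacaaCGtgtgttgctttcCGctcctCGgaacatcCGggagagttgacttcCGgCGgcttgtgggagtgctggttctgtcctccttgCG
KLF5 upstream: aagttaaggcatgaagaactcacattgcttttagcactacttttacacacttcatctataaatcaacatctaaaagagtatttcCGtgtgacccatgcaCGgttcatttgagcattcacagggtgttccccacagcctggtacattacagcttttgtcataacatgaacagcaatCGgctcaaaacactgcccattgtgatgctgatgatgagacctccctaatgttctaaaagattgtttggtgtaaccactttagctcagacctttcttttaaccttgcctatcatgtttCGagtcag
KLF12: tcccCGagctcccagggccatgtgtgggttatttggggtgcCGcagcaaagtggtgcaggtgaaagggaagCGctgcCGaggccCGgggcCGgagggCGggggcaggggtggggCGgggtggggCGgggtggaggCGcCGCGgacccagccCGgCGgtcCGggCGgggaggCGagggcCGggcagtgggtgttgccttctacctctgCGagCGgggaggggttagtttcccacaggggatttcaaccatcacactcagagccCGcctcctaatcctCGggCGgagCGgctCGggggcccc

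The letters CG, which read alike on both strands, occur 6 times in the KLHL1 promoter, and 66.3% of the 35116 promoters of the RefSeq table hold at least as many. They occur 24 times in the PIBF1 promoter and 24 times in the DIS3 promoter (33.9% of promoters hold as many) and 25 times in the KLF12 promoter (32.0%), against a median of 14. The upstream KLF5 promoter holds 4 (75.5%). A second KLF5 promoter 4029 bases downstream holds 37 (11.3%), and it lies outside the measured KLF5 window, so no value for it is given here. All 6 genes had at least 1 promoter in the RefSeq table, and windows were paired with promoters without converting coordinates, by distance within each build from the KLHL1 start, which was taken as the start of the minus-strand window there.

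H3K9me3 over input is given as log2 of reads per scaled library size, averaged over both fractions and sets unless stated, with limma's SE. It is relative to a centre set by trimmed means of M values (TMM), not absolute, and the median of all 36440 windows tested lay at -0.34 on this scale. A window was called at an adjusted p under 0.05 (limma, Benjamini-Hochberg over all windows tested). H3K9me3 was higher than input at all 3 KLHL1 windows, by up to 3.89-fold, and at the minus-strand window inside PIBF1. It was lower than input at both windows of the DIS3 and PIBF1 start, down to 0.237 times the input level, and at KLF12. KLF5 and the plus-strand window inside PIBF1 were not called. Thus 4 of 9 windows were called higher, against 15.9% of all windows tested and 19.5% of other chromosome 13 windows, and 3 of 9 were called lower, against 35.2% of all windows and 24.4% of other chromosome 13 windows. With the constants of the deposited values in place of TMM, 0 and 5 of the 9 windows and 0.933% and 54.0% of all windows were called higher and lower. The median of the 9 windows was -0.36, close to the -0.34 of all windows, while that of the other 788 chromosome 13 windows tested was 0.00.

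**Figure D1:**
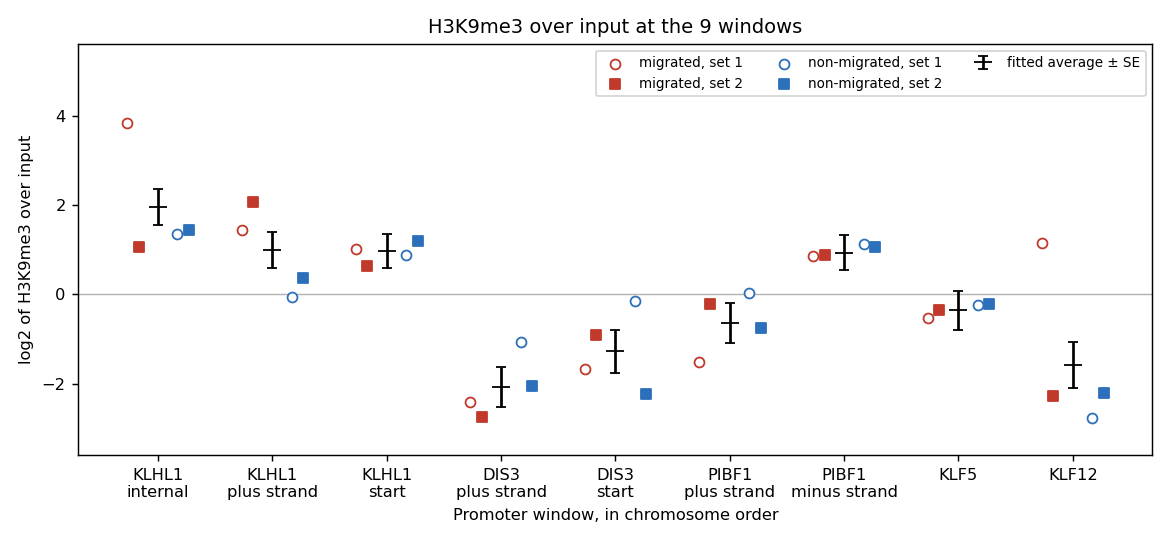
Log2 of H3K9me3 over input (vertical axis, reads plus 0.5 per TMM-scaled library size) at the 9 windows in chromosome order (horizontal axis), for migrated cells (red, left) and non-migrated cells (blue, right) in set 1 (open circles) and set 2 (filled squares), with the fitted average ± SE in black. The 3 KLHL1 averages lie between 0.96 and 1.96 and the DIS3 and KLF12 averages between -2.08 and -1.27, and at KLF12 the migrated set 1 value of 1.14 stands apart from the other three.

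KLF5 showed H3K9me3 close to the median window. Its window (hg19 chr13:73627114-73629214, plus strand) covers the upstream, CpG-poor promoter printed above, whose start lies 1 base from that of the window. In migrated cells of set 2 it held 9 H3K9me3 and 20 input reads, against 14 and 23 in non-migrated cells. In set 1 the migrated libraries held 1 H3K9me3 and 14 input reads and the non-migrated libraries 2 and 6. The average was -0.36 ± 0.43 (adjusted p = 0.504, limma), at percentile 49.6 of all windows tested. All 4 comparisons of H3K9me3 with input, migrated -0.54 and -0.35 and non-migrated -0.24 and -0.22, were slightly below 0.

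KLF12 was called lower, on very few H3K9me3 reads. Its window (hg19 chr13:74708294-74710394, minus strand), 149 bases from the start of the CpG-rich KLF12 promoter printed above, held 2 H3K9me3 reads in migrated cells of set 2, with 20 in the input, and 6 in non-migrated cells, with 41 in the input. In set 1 it held 2 H3K9me3 and 7 input reads in migrated cells, and 0 and 7 in non-migrated cells. Both fractions of set 2 and the non-migrated fraction of set 1 were low (log2 -2.28, -2.20 and -2.77), the last from 0 H3K9me3 reads plus 0.5. The migrated fraction of set 1 was at 1.14, from 2 reads. The average was -1.58 ± 0.52 (0.334-fold, adjusted p = 0.0106, limma), and was called under 8 of 16 alternative settings. The call was lost without the migrated H3K9me3 library of set 2 (-0.48, adjusted p = 0.414), the non-migrated H3K9me3 library of set 1 (-0.31, adjusted p = 0.629), either migrated input (-1.49 without set 1 and -1.34 without set 2) or the non-migrated input of set 2 (-1.25).

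The lowest H3K9me3 of the 9 windows was at the divergent start of DIS3 and PIBF1, 2 genes whose annotated starts lie 233 bases apart on opposite strands in GRCh38.p14. The DIS3 plus-strand window (hg19 chr13:73354197-73356297) is on the strand of PIBF1, and the PIBF1 promoter printed above starts 75 bases from its assumed start. It held 2 H3K9me3 reads against 28 input reads in migrated cells of set 2, and 5 against 31 in non-migrated cells. In set 1 it held 0 against 17 in migrated cells and 2 against 11 in non-migrated cells. The log2 of H3K9me3 over input was below 0 in all 4 pairs, but the migrated value of set 1 (-2.4) rests on 0 H3K9me3 reads plus 0.5. The average was -2.08 ± 0.45 (0.237-fold, adjusted p = 0.000274, limma). Of the 9 windows this was the one called under all 16 alternative settings, between -3.00 and -1.24.

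The DIS3 start window (hg19 chr13:73356134-73358234, minus strand) is on the strand of DIS3, whose RefSeq promoter starts 195 bases away. It shares 163 bases with the plus-strand window, so the 2 windows are not wholly separate measurements. It held 5 H3K9me3 and 17 input reads in migrated cells of set 2, and 4 and 29 in non-migrated cells. Set 1 gave 0 and 10 in migrated cells and 3 and 8 in non-migrated cells. The average was -1.27 ± 0.48 (0.416-fold, adjusted p = 0.0267, limma), and was called under 6 of 16 alternative settings. All 4 pairs were again below 0, but both values of set 1 rest on very few reads. The migrated one (-1.66) came from 0 H3K9me3 reads plus 0.5, and the non-migrated one (-0.15), from 3 reads, was close to 0. The call was lost without the migrated H3K9me3 library of set 1 (-0.33) or the non-migrated one of set 2 (-0.59). It was also lost without either migrated input (-1.17 without set 1 and -1.03 without set 2) or either non-migrated input (-1.33 and -0.91).

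The 2 windows filed under PIBF1 lie inside the gene, 69029 and 99155 bases from the start of the DIS3 plus-strand window, in a gene of 234329 bases (RefSeq), and so do not measure its annotated promoter. The plus-strand one (hg19 chr13:73423226-73425326) held 11 and 22 H3K9me3 and input reads in migrated cells of set 2 and 12 and 29 in non-migrated cells, with an average of -0.64 ± 0.45 (adjusted p = 0.234, limma). The migrated H3K9me3 library of set 1 held 0 reads there: the average was 0.20 without it, and without the migrated one of set 2 it was -1.16 and was called lower (adjusted p = 0.0245). The minus-strand one (hg19 chr13:73455252-73457352) held 25 and 23 reads in migrated cells and 30 and 20 in non-migrated cells of set 2, and 4 and 16 (migrated) and 3 and 3 (non-migrated) in set 1. H3K9me3 was above input in all 4 pairs (0.85 to 1.13), for an average of 0.93 ± 0.39 (1.90-fold, adjusted p = 0.0477, limma). This average was called under 8 of 16 alternative settings. That call was lost without either migrated input (adjusted p = 0.0732 without set 1 and 0.073 without set 2), the non-migrated input of set 1 (0.67) or the non-migrated H3K9me3 library of set 2 (0.67).

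BORA itself has no window under its name, but the RefSeq BORA promoter starts 1 base from the plus-strand window filed under MZT1, a small subunit of the gamma-tubulin complex whose start lies 294 bases away on the other strand. That window (hg19 chr13:73300061-73302161) is not a member by the rule. It held 2 H3K9me3 reads against 41 in the input in migrated cells of set 2, and 9 against 93 over all libraries, at -1.99 ± 0.47 (0.252-fold, adjusted p = 0.000727, limma). The BORA promoter holds CG 35 times, and 14.1% of promoters hold as many.

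KLHL1 held the window with the highest H3K9me3 among the 5 genes that had windows. The internal window (hg19 chr13:70375072-70377172, plus strand) lies 305519 bases from the KLHL1 start, inside a gene of 407856 bases. It held 25 H3K9me3 reads against 20 input reads in migrated cells of set 2, and 32 against 16 in non-migrated cells. In set 1 it held 7 against 3 in migrated cells and 7 against 6 in non-migrated cells. H3K9me3 was above input in all 4 pairs, from 1.07 to 3.83, with an average of 1.96 ± 0.40 (3.89-fold, adjusted p = 0.00013, limma), at percentile 98.7 of all windows and 98.5 of chromosome 13. The call held in 15 of 16 alternatives and was lost with the constants of the deposited values in place of TMM (1.00, adjusted p = 0.106). For scale, other genes were each taken at their window with the most reads, H3K9me3 reads included. The median over 212 zinc finger genes of chromosome 19, a group known for H3K9me3, was 1.24 (range -2.74 to 3.07). ACTB, the gene of beta-actin, lay at -2.16 and the median of 59 ribosomal protein genes at -0.99 (range -3.59 to 1.56).

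The other KLHL1 windows lie side by side at its start. The KLHL1 start window (hg19 chr13:70682491-70684591, minus strand) belongs to the CpG-poor promoter printed above and served as the anchor of the pairing. It held 23 H3K9me3 and 25 input reads in migrated cells of set 2, 25 and 15 in non-migrated cells, and 3 and 11 (migrated) and 5 and 6 (non-migrated) in set 1. All 4 pairs were above 0, between 0.64 and 1.19. The average was 0.96 ± 0.38 (1.94-fold, adjusted p = 0.034, limma), and was called under 8 of 16 alternative settings. The call was lost without the migrated input of set 1 (0.78, adjusted p = 0.282), the migrated H3K9me3 library of set 2 (0.94), or either non-migrated input (1.12 and 1.04).

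The KLHL1 plus-strand window (hg19 chr13:70679345-70681445) starts 1246 bases from the KLHL1 start and runs on the strand of ATXN8OS, the antisense RNA whose RefSeq start lies 1031 bases from that of KLHL1. It held 23 H3K9me3 and 9 input reads in migrated cells of set 2, against 13 and 14 in non-migrated cells. In set 1 it held 3 and 8 in migrated cells and 5 and 12 in non-migrated cells. Both migrated pairs (1.45 and 2.07) were above both non-migrated pairs (-0.05 and 0.37). The average was 0.99 ± 0.41 (1.99-fold, adjusted p = 0.0406, limma), and was called under 6 of 16 alternative settings. The call was lost without either non-migrated input (1.17 and 1.07), the migrated input (0.80) or the non-migrated H3K9me3 library (0.91) of set 1, or the migrated H3K9me3 library of set 2 (0.73).

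Ordered by level, the internal KLHL1 window was followed by the KLHL1 plus-strand and start windows, the PIBF1 minus-strand window, KLF5, the PIBF1 plus-strand window, the DIS3 start window, KLF12 and the DIS3 plus-strand window. Between neighbours in this order, only the step from the PIBF1 minus-strand window down to KLF5 (1.28, combined SE 0.58) was larger than 2 combined SE, taken as if the windows were independent. The highest and lowest windows differed by 4.04 (combined SE 0.60). The scaling of libraries moves all windows about alike, and the 4 scalings tried shifted the median of all windows by up to 0.96.

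**Figure D2:**
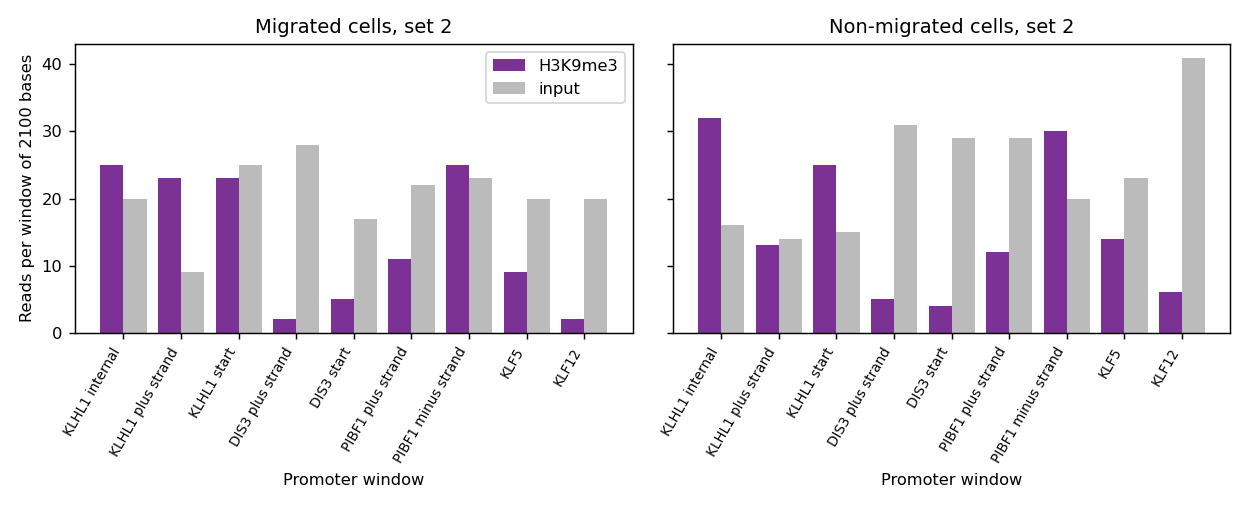
Reads per window of 2100 bases (vertical axis, from 0) in the H3K9me3 (purple) and input (grey) libraries of the deeper set 2, for migrated cells (left panel) and non-migrated cells (right panel) at the 9 windows. The DIS3 and KLF12 windows hold 2 to 6 H3K9me3 reads against 17 to 41 input reads, while the KLHL1 windows hold 13 to 32 H3K9me3 reads.

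In each fraction alone fewer windows were called. In migrated cells the internal KLHL1 window (2.16 ± 0.55, adjusted p = 0.00242, limma) and the KLHL1 plus-strand window (1.88 ± 0.58, adjusted p = 0.01, limma) were higher than input, and the DIS3 plus-strand window was lower (-2.57 ± 0.66, adjusted p = 0.00266, limma). That is 2 of 9 higher, against 12.9% of all windows, and 1 of 9 lower, against 28.2%. In non-migrated cells the internal KLHL1 window was higher (1.76 ± 0.51, adjusted p = 0.00883, limma), and the DIS3 plus-strand window (-1.58 ± 0.60, adjusted p = 0.0415, limma) and KLF12 (-2.36 ± 0.71, adjusted p = 0.0114, limma) were lower, which is 1 of 9 higher, against 8.42%, and 2 of 9 lower, against 23.6%. Without the migrated input of set 1 both migrated KLHL1 calls were lost (1.31 at the internal and 1.51 at the plus-strand window), the plus-strand one also without H3K9me3 of migrated cells in set 2 (1.25), and the migrated DIS3 call without the migrated input of set 2 (-2.24). In non-migrated cells the internal KLHL1 call was lost without the non-migrated input (0.78) or H3K9me3 library (1.16) of set 2 or the migrated input of set 1 (1.56), that of KLF12 without the non-migrated H3K9me3 library of set 1 (-0.25) or the non-migrated input of set 2 (-1.98), and that of the DIS3 plus-strand window without any 1 of the 8 libraries other than the migrated H3K9me3 ones (-1.74 to -1.20).

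The question of the design, whether H3K9me3 differs between migrated and non-migrated cells, gave 0 calls in either direction at the 9 windows, as it did at all 36440 windows (0.0% called in each direction, limma). At an unadjusted p under 0.05 stood 1 of the 9 windows and 1286 of all windows. That window was the KLHL1 plus-strand one, where the input-corrected change, migrated minus non-migrated, was 1.78 ± 0.77 (adjusted p = 0.999, limma), with a 95% interval of 0.21 to 3.35. It was 1.50 in set 1 and 1.69 in set 2. The input there held 8 and 9 reads in migrated cells against 12 and 14 in non-migrated cells. At KLF12 the change was 1.56 ± 0.98 (adjusted p = 0.999, limma), but 3.92 in set 1 and -0.08 in set 2. The KLF12 change was 3.98 without the migrated and 4.04 without the non-migrated H3K9me3 library of set 2. Only set 1 then held both H3K9me3 libraries, with 2 (migrated) and 0 (non-migrated) reads. It was -0.13 or -0.11 without 1 of the H3K9me3 libraries of set 1. The changes at the other 7 windows lay between -0.99 and 0.39. With SEs of 0.66 to 0.98, differences of about 1 log2 unit at a single window were not detectable at this depth. A change of 1.78 was not called either, and the smallest detectable change was not worked out.

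Input reads, which measure DNA rather than the histone mark, also gave 0 calls between migrated and non-migrated cells at the 9 windows and 0.0% over all windows (limma), with 1 of 9 and 570 of all windows at an unadjusted p under 0.05. The 1 window was KLF12, at -0.98 ± 0.47 (adjusted p = 1.0, limma). It held 7 and 20 reads in migrated cells against 7 and 41 in non-migrated cells. The part of this in the KLF12 change above was not tested.

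**Figure D3:**
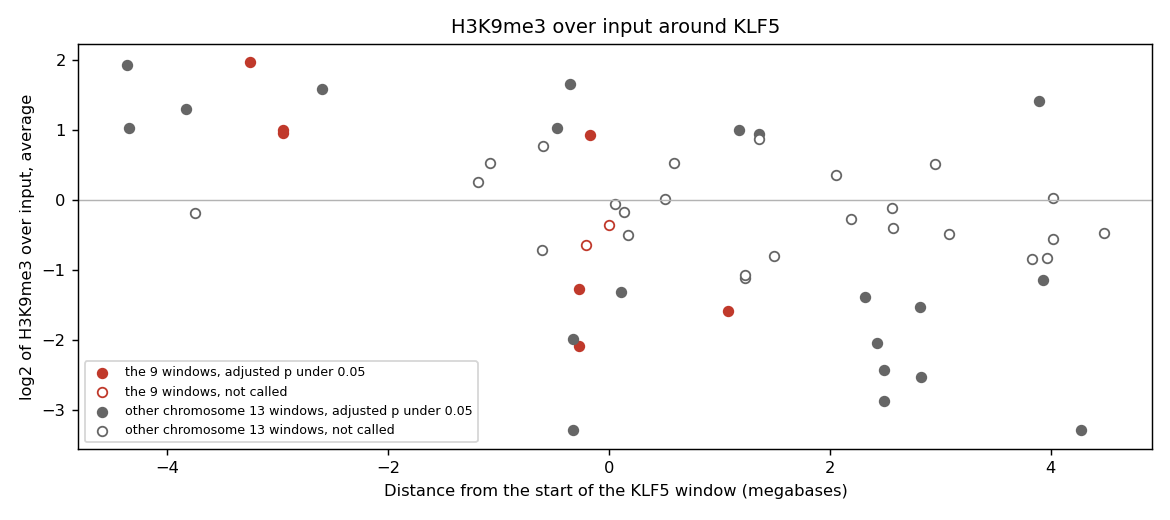
Average log2 of H3K9me3 over input (vertical axis) against the distance from the start of the KLF5 window in megabases (horizontal axis) for the 9 windows (red) and the other chromosome 13 windows tested nearby (grey), filled where the adjusted p was under 0.05. High and low windows lie side by side, with the DIS3 plus-strand window at -2.08 and the PIBF1 minus-strand window at 0.93 within 99155 bases.

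The input level asks whether DNA of these windows was over- or under-represented in SiHa. Each window's input reads were divided by the median of the 766 other chromosome 13 windows of 2100 bases that passed the filter, in the same library, which was 12 (migrated) and 7 (non-migrated) reads in set 1 and 26 and 25 in set 2. The autosomal medians were 17 and 10 in set 1 and 40 and 41 in set 2. The 9 windows had a median input level of 0.928 of the chromosome 13 median, where the comparison windows had a median of 1.02. KLF5 was at 0.928 ± 0.171 (SD over the 4 input libraries, here and below), KLF12 at 0.998 ± 0.461, the DIS3 plus-strand window at 1.33 ± 0.214 and the DIS3 start window at 0.948 ± 0.247. The PIBF1 windows were at 0.939 ± 0.18 (plus strand) and 0.862 ± 0.372 (minus strand). The KLHL1 windows were lowest, at 0.629 ± 0.268 (internal), 0.822 ± 0.61 (plus strand) and 0.834 ± 0.162 (start). The middle 90% of the comparison windows spanned 0.645 to 1.42, and of the 9 means only that of the internal KLHL1 window lay outside it. That mean rests on the migrated input of set 1, with 3 reads, and was 0.755 without it, inside the span.

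In the deeper set 2, exact Poisson intervals (95%, counting error only) left out 1 in at least 1 fraction at the windows below. The share of comparison windows that did so was not counted, so nothing is read from the number of such windows. The KLHL1 plus-strand window was at 0.346 (0.158 to 0.657) in migrated cells and 0.560 (0.306 to 0.940) in non-migrated cells. In set 1 the same window was at 0.667 in migrated cells and at 1.71, above the median, in non-migrated cells. The KLHL1 start window was at 0.600 (0.336 to 0.990) in non-migrated cells, but at 0.962 (0.622 to 1.42) in migrated cells. KLF12 was at 0.769 (0.470 to 1.19) in migrated cells and at 1.64 (1.18 to 2.22) in non-migrated cells. Input reads reflect copy number, base composition and mappability together, and these cannot be told apart without a normal genome.

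The windows between the outermost members, over 4335322 bases, gave the context. Of 16 such windows 15 could be tested, of which 3 of 15 were called higher and 3 of 15 lower, near the 19.5% and 24.4% of other chromosome 13 windows, and their median was 0.01. The higher ones carry small RNA genes or their copies: RNU6-80 at 1.65 ± 0.37, RNU6-54 at 1.58 ± 0.36 and SNORA9 at 1.02 ± 0.40. The lower ones were both MZT1 windows and RNU7-89P (-1.31 ± 0.43). The minus-strand MZT1 window held 1 H3K9me3 read against 77 input reads over all libraries, for which no fold is given.

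**Figure D4:**
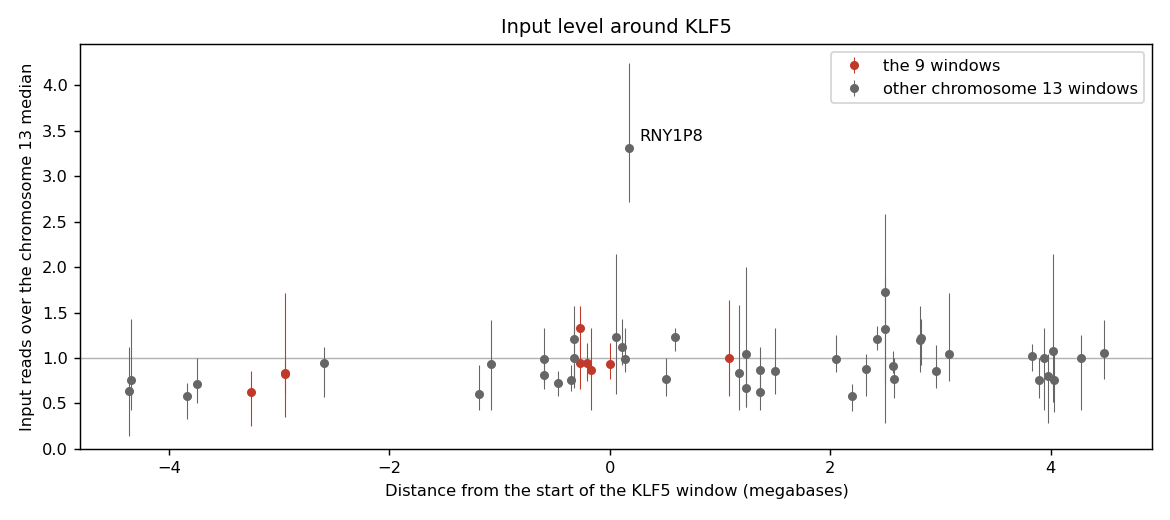
Input reads over the chromosome 13 median (vertical axis, from 0) against the distance from the start of the KLF5 window in megabases (horizontal axis), as the mean of the 4 input libraries with lines from the lowest to the highest, for the 9 windows (red) and other chromosome 13 windows (grey). The 9 windows lie between 0.629 and 1.33, and the RNY1P8 window between KLF5 and KLF12 lies at 3.31.

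One window between KLF5 and KLF12 stood apart in input, and was singled out after its values were seen. RNY1P8, filed as a copy of a Y RNA gene, has its window (hg19 chr13:73799284-73801384, plus strand) 172170 bases beyond the start of the KLF5 window and 907110 bases short of that of KLF12. Its input held 51 and 80 reads in migrated cells (set 1 and set 2) and 19 and 80 in non-migrated cells, or 3.31 ± 0.66 times the chromosome 13 median. This was the highest of the 766 windows, of which the second, ZMYM5, was at 1.84. All 4 inputs were high, and in set 2 the ratio was 3.08 (2.44 to 3.83, 95% exact Poisson) in migrated and 3.20 (2.54 to 3.98) in non-migrated cells. H3K9me3 reads were high in set 2 as well, at 3.0 times the chromosome 13 median in migrated and 3.41 times in non-migrated cells. H3K9me3 over input was -0.16 (migrated) and 0.02 (non-migrated) in set 2. In set 1 it was -2.37 in migrated cells, from 1 H3K9me3 read, and 0.24 in non-migrated cells. The average at RNY1P8 was -0.50 ± 0.32 and not called (adjusted p = 0.199, limma). Its nearest neighbours were at 0.988 (RNU4-10P, toward KLF5) and at 0.763 and 1.23 (LINC00393, toward KLF12). Against autosomal windows RNY1P8 was at 2.21 (percentile 97.2), and RNY1P1, the other window of this family that was compared, also on chromosome 13, was at 0.752. Copy number and mapping of reads from other Y RNA copies cannot be told apart at this window, and its distance from the viral DNA was not measured.

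Genes of the same families and pathways elsewhere in the genome, with the best-covered window standing for each gene, give the members a setting. Of 11 other KLF genes tested, 0 were called higher and 6 (54.5%) lower, against 15.9% and 35.2% of all windows, with a median of -1.03, against -0.34 over all windows. They included KLF9 (-2.26 ± 0.45) and KLF16 (-1.76 ± 0.46), and KLF10 with 2 H3K9me3 reads in all. Of 11 other genes of the RNA exosome and its cofactors, 0 were higher, against 15.9% of all windows, and 4 (36.4%) lower, near the 35.2% of all windows (median -0.58). The 4 included EXOSC4 (-3.43 ± 0.40), EXOSC1 (-1.63 ± 0.43) and DIS3L (-1.69 ± 0.46), the cytoplasmic relative of DIS3. Of 11 genes of the mitotic kinase circuit in which BORA acts, 0 were higher and 7 (63.6%) lower, against 15.9% and 35.2% of all windows (median -1.40). The 7 included PLK1 (-2.47 ± 0.43), the kinase activated with the help of BORA, CDC25C (-2.01 ± 0.42) and BUB1B (-1.79 ± 0.41).

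Of 29 Kelch-like genes tested, 7 (24.1%) were called higher and 11 (37.9%) lower, against 15.9% and 35.2% of all windows, with a median of -0.06. KLHL34 (1.91 ± 0.32), KLHL22 (1.12 ± 0.30) and KLHL25 (1.02 ± 0.29) were high. KLHL17 (-3.23 ± 0.44), KLHL35 (-2.73 ± 0.42) and KLHL8, with 4 H3K9me3 reads in all, were low. The internal KLHL1 window, at 1.96 ± 0.40, lay beside KLHL34. In each of these 4 lists, 0 genes were called changed between migrated and non-migrated cells, as were 0.0% of all windows.

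The chromosome 13 windows most like each gene's window with the most reads were sought by Euclidean distance over 4 values, H3K9me3 over input in each fraction of each set, among 682 windows. KLF5 lay nearest RP11-490N5.2 (distance 0.57) and N4BP2L2 (0.61), where the median window was 2.65 away. KLF12 lay nearest XPO4 (0.53) and SPRYD7 (0.95), and the DIS3 plus-strand window nearest CLYBL (0.57) and MRPS31 (0.61). The PIBF1 minus-strand window lay nearest CCDC70 (0.32) and FREM2 (0.33). The internal KLHL1 window had no neighbour so close, with SNORA25 at 1.38 and GPC6 at 1.39, where the median window was 4.6 away.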

How the data were processed

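The members and the gene lists were chosen with earlier results of these data known. Promoter windows in hg19 start 2000 bases before an assumed start and end 100 bases past it, and their deposited values are log2, per the file headers. FastQC 0.11.5, Bowtie2 2.2.9 and SAMtools 1.3 are named in the submitters' processing notes, and the counting program was not given in the sources used here. A constant per library had been added to log2 of whole read counts, with empty windows entered as log2 of 0.9; 100% of values were whole within 0.01 once the constant was removed, and these reads were used. Depth outside promoter windows is unknown. For 1 migrated H3K9me3 library the title and description disagree on the replicate, and the title was followed.

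Reads plus 0.5 per library size, scaled with TMM (30% of ratios and 5% of levels trimmed), were fitted with limma 3.58.1 (R 4.3.3) with voom weights. The model held set, ChIP, their product, fraction, and fraction by ChIP, over all 8 libraries, with 2 residual and 33.2 prior degrees of freedom; each comparison was fitted as a coefficient of its own. Windows needed a level of 10 reads in a library of median size in at least 2 libraries and 15 reads in all, which kept 36440 of 38157. The steps were tested on simulated data. The series describes 2 paired sets, so the replicate set stayed in as a block; same-numbered libraries deviated together at r = 0.147 (H3K9me3) and 0.469 (input) across windows. The labels call set 2 a second biological replicate. Poisson intervals cover counting error only. Named neighbours, list genes (up to 3 per direction, by smallest p) and likeness followed a fixed rule. Other scalings, weights, models, filters and added counts, no block and leaving out each library were tried.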

Additional observations from a re-analysis of the deposited data

How the results depend on the processing

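Set 1 and the few H3K9me3 reads per window limited precision. Of the 9 averages, that of the DIS3 plus-strand window was called under all 16 alternatives and that of the internal KLHL1 window under 15. The other 5 called windows kept their call under 6 to 8. All 5 lost it without precision weights and in the quasi-Poisson model. The KLHL1 plus-strand, KLHL1 start and PIBF1 minus-strand calls were also lost with median-of-ratios factors and with the deposited constants. With 2 added to each count, the DIS3 start and KLF12 calls were lost. The DIS3 start call was also lost without the filter, and the KLHL1 plus-strand call without the replicate block. The comparison with windows of like GC content was not run, because no genome of the build was used. The causes of the changes below were not tested, except that the deposited constants lower H3K9me3 over input at all windows, by 0.96 at the median.

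The calls over all windows moved too: with the deposited constants 0.933% were higher and 54.0% lower on average, with median-of-ratios factors 13.8% and 37.5%, without weights 14.4% and 31.2%, in the quasi-Poisson model 13.5% and 17.2%, and with 2 added 25.2% and 28.7%. In migrated cells the constants gave 0.096% and 54.6%, and in non-migrated cells 0.39% and 23.2%; the quasi-Poisson model gave 9.34% and 3.95% (migrated) and 4.58% and 2.06% (non-migrated). Among the members, windows called higher on average (4) numbered 1 with median-of-ratios factors, 0 with the deposited constants, 1 without precision weights, 1 in the quasi-Poisson model and 1 to 4 with 1 library left out. Those called lower (3) numbered 5 with the constants, 1 without weights, in the quasi-Poisson model and with 2 added to each count, and 1 to 3 with 1 library left out. In migrated cells higher calls (2) numbered 0 with the constants, 4 with 2 added and 0 to 3 with 1 library left out; lower calls (1) numbered 5 with the constants, 0 in the quasi-Poisson model and 0 to 2 with 1 library left out. In non-migrated cells higher calls (1) numbered 0 with the constants, without weights and in the quasi-Poisson model, 2 without the filter, 3 with 2 added and 0 to 3 with 1 library left out; lower calls (2) numbered 1 with total reads, without the filter and with 2 added, 0 without weights and in the quasi-Poisson model, and 0 to 2 with 1 library left out. Without the replicate block the higher calls in non-migrated cells numbered 0 (5.63%) and those on average 3 (15.9%), and other counts of calls did not move. Changes between fractions gave 0 calls at the 9 windows under every setting with all 8 libraries, where at most 0.00274% of all windows were called. Leaving out 1 library leaves 1 library in its group, so calls are not counted for those fits. KLF12 was the only member whose change then passed the threshold, with values from -0.13 to 4.04. Calls of changes over all windows rose from 0 as well, most without either H3K9me3 library of set 2. The input level of 0.928 was 0.621 against autosomal windows, and 0.873 to 0.980 with 1 input left out.

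Directions turned near 0 and also at larger values, such as the 0.79 of the KLHL1 start in migrated cells. With the deposited constants, migrated values were -0.58 at the KLHL1 start and -0.49 at the PIBF1 minus-strand window, the non-migrated value was -0.31 at the KLHL1 plus-strand window, changes were -0.07 at the internal KLHL1 window and -1.04 at the DIS3 start window, and input differences were 0.16 at the DIS3 plus-strand window and 0.34 at KLF5. With 2 added, the PIBF1 plus-strand window was at 0.13 in migrated cells, with a change of 0.38, and KLF5 had a change of 0.00. Without weights the DIS3 start change was -0.10 and the KLF5 input difference 0.06. The PIBF1 plus-strand change was 0.30 in the quasi-Poisson model and 0.09 without the replicate block, and KLF5 in non-migrated cells was at 0.01 without the filter.

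With 1 library left out, averages ran from -1.16 to 0.20 at the PIBF1 plus-strand window and -0.46 to 0.08 at KLF5. Migrated values ran from -2.62 to 0.29 at the DIS3 start, -2.00 to 0.50 at the PIBF1 plus-strand window and -2.38 to 1.51 at KLF12. Non-migrated values ran from -0.15 to 0.66 at the KLHL1 plus-strand window, -2.36 to 0.10 at the DIS3 start, -1.30 to 0.74 at the PIBF1 plus-strand window and -0.45 to 0.34 at KLF5. Changes ran from -0.25 to 1.81 at the internal KLHL1 window, -0.58 to 0.19 at the KLHL1 start, -1.44 to 1.27 at the DIS3 start, -1.68 to 0.62 and -1.25 to 0.48 at the PIBF1 plus- and minus-strand windows, -0.56 to 0.02 at KLF5 and -0.13 to 4.04 at KLF12. Input differences ran from -1.72 to 0.32 at the internal KLHL1 window, -0.00 to 0.72 at the KLHL1 start and -0.19 to 0.36 at KLF5. A library left without its pair was assumed to vary like the others.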
